A study of Mus musculus with 6 samples.

Results

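The Trim genes encode the tripartite motif proteins, which carry a RING finger, B-box domains and a coiled coil. Every gene whose annotated symbol is Trim followed by a digit was taken, and each was read from the probe set with the highest mean log2 intensity over the 6 arrays, among probe sets with a single symbol. The rule gave 58 Trim genes of the 18193 genes so represented on the array, and 39 of the 58 had enough signal to be tested. The other 19 stayed under the low-signal limit, an intensity of 64.43 (the median of all values), on all 6 arrays of that probe set.

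Most tripartite motif proteins are ubiquitin ligases, and the domain at the end of the chain sets what each one binds. Members with a SPRY domain include many antiviral proteins that are induced by interferon, act on viral capsids or adjust RNA and DNA sensing. Members with a PHD finger and a bromodomain, the TIF1 cofactors, act on chromatin, and Trim28 (also KAP1) is the corepressor that KRAB zinc finger proteins bring to DNA. Other members carry NHL repeats, which bind RNA or proteins, or a COS box, which binds microtubules.

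Affymetrix 3' expression arrays were run on 6 cultures of CD4 T cells from mouse spleen, 1 array for each combination of genotype and culture. The cells were labelled Ezh2 KO or wild type, all on the C57BL/6 strain, and were cultured as unpolarized, Th1 or Th2 cells. Ezh2 is a catalytic subunit of Polycomb repressive complex 2, which methylates a lysine of histone H3 in silent genes. All cultures began with naive cells and ran for 5 days. Wells coated with the T cell receptor beta antibody (10 µg/ml) and medium holding the CD28 antibody (1 µg/ml) activated the cells over the first 2 days, both were left out over the last 3 days, and IL-2 was given at 15 ng/ml. Th1 cultures received 1 ng/ml IL-12 and antibody to IL-4. Th2 cultures received 10 ng/ml IL-4 and antibody to interferon gamma. Unpolarized cultures received the antibodies to IL-4 and interferon gamma, so Th1 was the condition without antibody to interferon gamma. The labels give neither the way Ezh2 was deleted, nor the age of the mice, nor whether each culture had its own mouse. The p-values therefore reflect nothing but how far these arrays differ from one another, which may be technical.

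Arrays had been scaled to the same trimmed mean intensity, 500.003, with medians from 61.29 to 69.06. Ezh2 itself had 4971, 4876 and 4946 in Ezh2 KO (unpolarized, Th1 and Th2), against 7002, 6553 and 7677 in wild type, a log2 difference of -0.52 ± 0.11 (SD, n = 3 pairs of arrays; limma adjusted p = 0.0436). Whether its probe set lies in the deleted part is not given in the labels, so the size of this drop does not check the labels. CD4 T cell markers summed to 56621 to 63019 in Ezh2 KO and 59850.5 to 64630.4 in wild type, and all 7 measured were over the limit. Of these, Cd2 was called lower (-0.64), and Cd4 (-0.55) and Cd5 (-0.51) were lower in every culture without a call. Cd3d (0.16), Cd3e (0.23), Cd3g (0.29) and Cd28 (0.38) were higher in every culture, also without a call. Of the markers of other cells, the CD8 list (Cd8a and Cd8b1) summed to 374 to 540 in Ezh2 KO and 389 to 414 in wild type. Both genes were over the limit on all arrays, and neither was called. Cd8a (-0.49) was lower in every culture and Cd8b1 (0.35) had mixed signs. The 4 erythroid genes measured were under the limit on all arrays. The myeloid and dendritic list summed to 6067.5 to 9266 in Ezh2 KO and 4232 to 4721 in wild type. Of its 8 tested genes, 3 were called higher (37.5%, against 8.37% of all genes), namely H2-Aa, Mpeg1 and Cd74. Mpeg1 passed only through Ezh2 KO, its 3 wild type values being below the floor of 11.33 to which low values were raised. Without a call, Cd68 (0.55) and Cst3 (0.41) were higher in every culture and Csf1r (-0.34) was lower in every culture. H2-Ab1 (0.28) and Adgre1 (0.11) had mixed signs. Lyz2, Itgam, Itgax, Cd14, S100a8 and S100a9 were under the limit on all arrays. The NK and NKT list summed to 885 to 1069.5 in Ezh2 KO and 169 to 206 in wild type, with Cd160 and Fcer1g called higher (Fcer1g passed only through Ezh2 KO) and Ncr1, Tyrobp, Klra1 and Zbtb16 under the limit. The B cell list summed to 4414 to 5843 in Ezh2 KO and 7341 to 8634 in wild type, a sum made up mainly of Ighm, which was called lower (-0.79), while Ms4a1 was called higher (2.46), Cd79b differed by 0.56 without a call, and Cd79a and Pax5 were under the limit. The part of these markers in the Trim results below was not tested. In bulk cultures, fewer cells of a type and less RNA per cell cannot be told apart.

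Values are given in the order unpolarized, Th1, Th2, first for Ezh2 KO and then for wild type, as linear intensities, and differences are log2 Ezh2 KO minus wild type, with the SD over the 3 cultures. A gene was called where the additive model of culture and genotype, fitted with limma to all genes tested, gave an adjusted p under 0.05. With 1 array per combination, the 3 cultures are the only repeats of the genotype comparison.

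The comparison of Ezh2 KO with wild type asks which Trim transcripts differ when Ezh2 is disrupted. It called 6 Trim genes higher in Ezh2 KO (Trim6, Trim12a, Trim34a, Trim5, Trim16 and Trim26) and 1 lower (Trim24). That is 7 of the 39 tested, or 17.9%, beside 16.4% of the 11566 genes tested, so the family as a whole was called about as often as any gene. By direction, 15.4% of the tested Trim genes were called higher and 2.56% lower, against 8.37% and 8.05% of all genes. With each array centred on its median, 5 Trim genes were called higher and 0 lower, and the split over all genes was 867 higher and 414 lower in place of 968 and 931. Leaving out any 1 of the 3 cultures left no Trim gene and no gene at all past the threshold, with 13 to 19 Trim genes at an unadjusted limma p under 0.05.

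The median difference over the tested Trim genes was 0.04, against -0.07 over all genes tested. Members differed in direction. Of the 39 tested, 15 were higher in Ezh2 KO in all 3 cultures (38.5%, against 26.2% of all genes), 13 were lower in all 3 (33.3%, against 36.3%), and 11 had mixed signs. In 13 genes all Ezh2 KO arrays lay above all wild type arrays (20.1% of all genes did so), and in 12 all lay below (27.5%). Without regard to direction, 47.6% of all genes had no overlap. The mean difference was at least 1 in size in 6 Trim genes (15.4%, against 10.3% of all genes). These counts include 4 genes that passed the signal limit only in Ezh2 KO (Trim2, Trim6, Trim60 and Trim62) and 2 that passed it only in wild type (Trim29 and Trim71), whose difference is in part set by that limit.

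**Figure D1:**
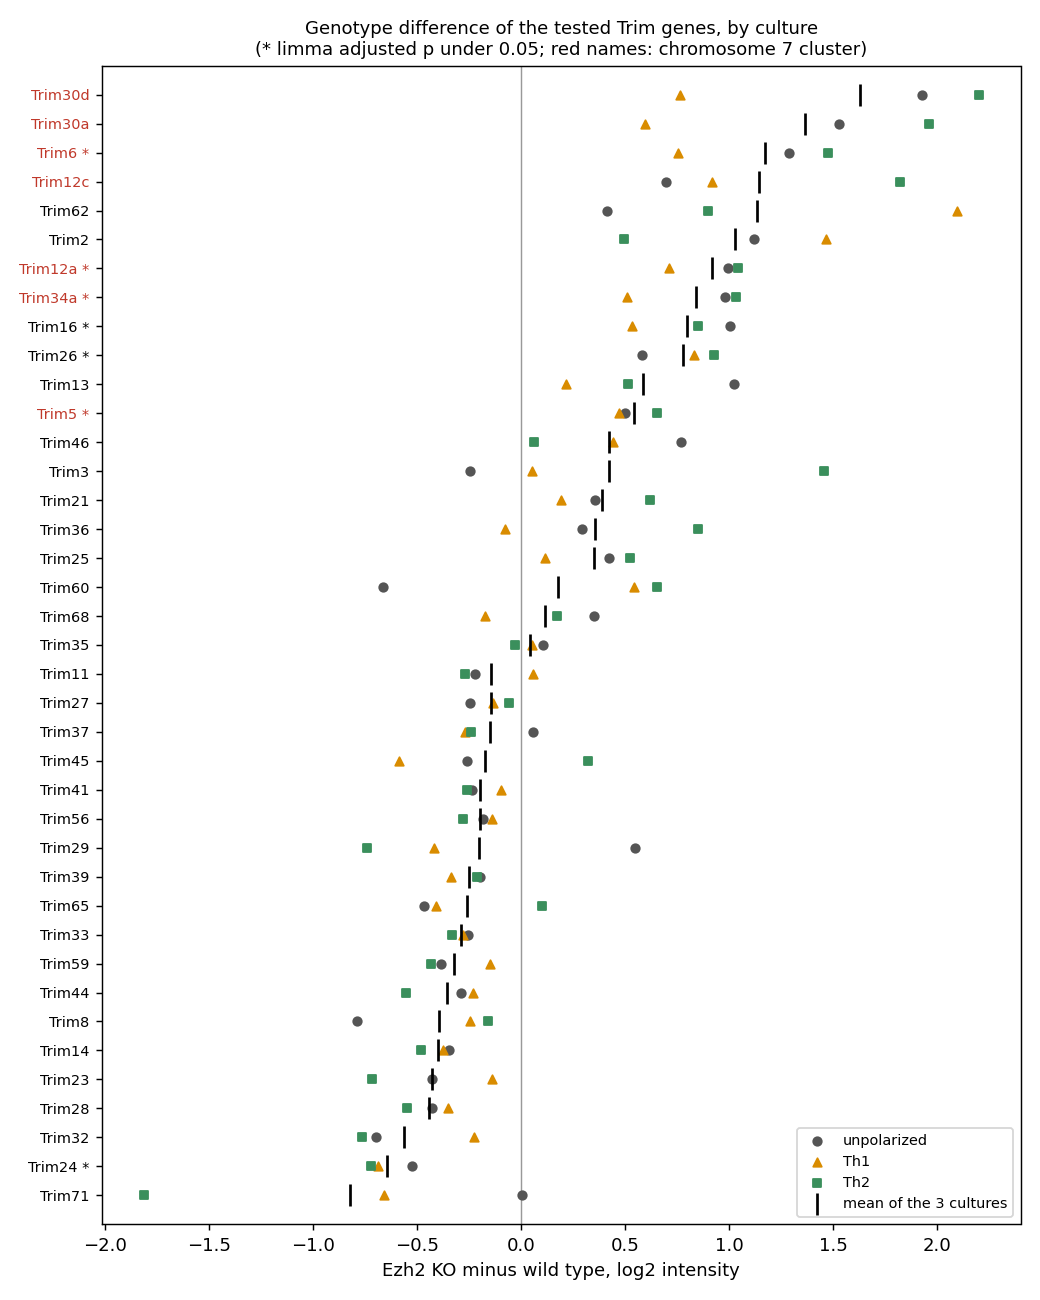
Log2 difference, Ezh2 KO minus wild type (x axis), for each of the 39 tested Trim genes (rows, ordered by mean), with 1 point per culture and a bar at the mean of the 3 cultures. All 7 genes of the chromosome 7 cluster (red names) lie right of 0 in every culture, and Trim24, Trim28 and Trim33 lie left of 0 in every culture.

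Of the 6 genes called higher in Ezh2 KO, 4 were neighbours, and of the 15 higher in all cultures, 7 were. In the RefSeq order of mouse chromosome 7 (assembly GRCm38.p6, used here for neighbours only), 10 protein-coding Trim genes follow each other as Trim6, Trim34a, Trim5, Trim12a, Trim34b, Trim12c, Trim30b, Trim30c, Trim30a and Trim30d. They share the block with 1 other protein-coding gene, Gm38525, and olfactory receptor genes flank it. A single-symbol probe set was present for 7 of the 10, and all 7 passed the signal limit. All 7 were higher in Ezh2 KO in every culture (26.2% of all genes were), 4 were called higher (8.37% of all genes), and in 6 all Ezh2 KO arrays lay above all wild type arrays (20.1% of all genes). Of the 4 called, Trim6 passed the signal limit only through Ezh2 KO. Their median difference was 1.14, with 0.99 in unpolarized, 0.71 in Th1 and 1.47 in Th2 cultures. The 32 tested Trim genes outside the cluster had a median of -0.16 and 3 calls (9.38%, against 16.4% of all genes). The block holds close paralogs, so probes of one can pick up transcripts of another, and these 7 genes are not independent measurements.

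Trim30d and Trim30a are the members nearest one end of the block. Mouse Trim30a is known to restrain Toll-like receptor signalling by promoting the loss of the adaptors Tab2 and Tab3. Trim30d had 1672, 1844 and 2162 in Ezh2 KO, against 439.6, 1085 and 470.2 in wild type, a difference of 1.63 ± 0.76 (limma adjusted p = 0.0557). All 3 Ezh2 KO arrays were above all wild type arrays, and wild type Th1 stood apart as the highest wild type array. Trim30a had 5798, 6564 and 6298 in Ezh2 KO, against 2010.0, 4340.3 and 1614 in wild type, a difference of 1.36 ± 0.70 (limma adjusted p = 0.0646). The same order held, with the Ezh2 KO arrays close together and wild type Th1 between them and the other wild type arrays. Neither passed the threshold, and the spread of their difference came with the smaller value in Th1 (0.77 for Trim30d and 0.60 for Trim30a, against 2.20 and 1.96 in Th2).

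The Trim12 and Trim5 genes are the mouse relatives of human TRIM5, which binds incoming retroviral capsids. Trim12a was called higher, with 1471, 1847 and 1377 in Ezh2 KO, against 738, 1129.7 and 668 in wild type (0.92 ± 0.18, limma adjusted p = 0.0294). Trim12c had 1928.5, 2179 and 1901 in Ezh2 KO, against 1188, 1155 and 538 in wild type (1.14 ± 0.59, limma adjusted p = 0.0671), did not pass, and was lowest in wild type Th2. Trim5 was called with a smaller and even difference, 552, 618 and 399.5 in Ezh2 KO against 390.3, 445 and 254 in wild type (0.54 ± 0.10, limma adjusted p = 0.0402). It is the 1 gene of the 7 whose genotypes overlapped, because its level in Th2 was low in both: the Ezh2 KO Th2 array was below the wild type Th1 array.

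Trim34a, another SPRY member induced by interferon, was called higher, with 2932, 3285 and 2798 in Ezh2 KO against 1486, 2307 and 1367 in wild type (0.84 ± 0.29, limma adjusted p = 0.0438). Trim6, whose human form makes free ubiquitin chains that activate a kinase of the interferon response, was also called, with 67.3, 89.9 and 124 in Ezh2 KO against 27.6, 53.2 and 44.7 in wild type (1.17 ± 0.37, limma adjusted p = 0.0369). All 3 wild type values of Trim6 were under the signal limit, so it passed only through Ezh2 KO and the size of its difference is uncertain.

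**Figure D2:**
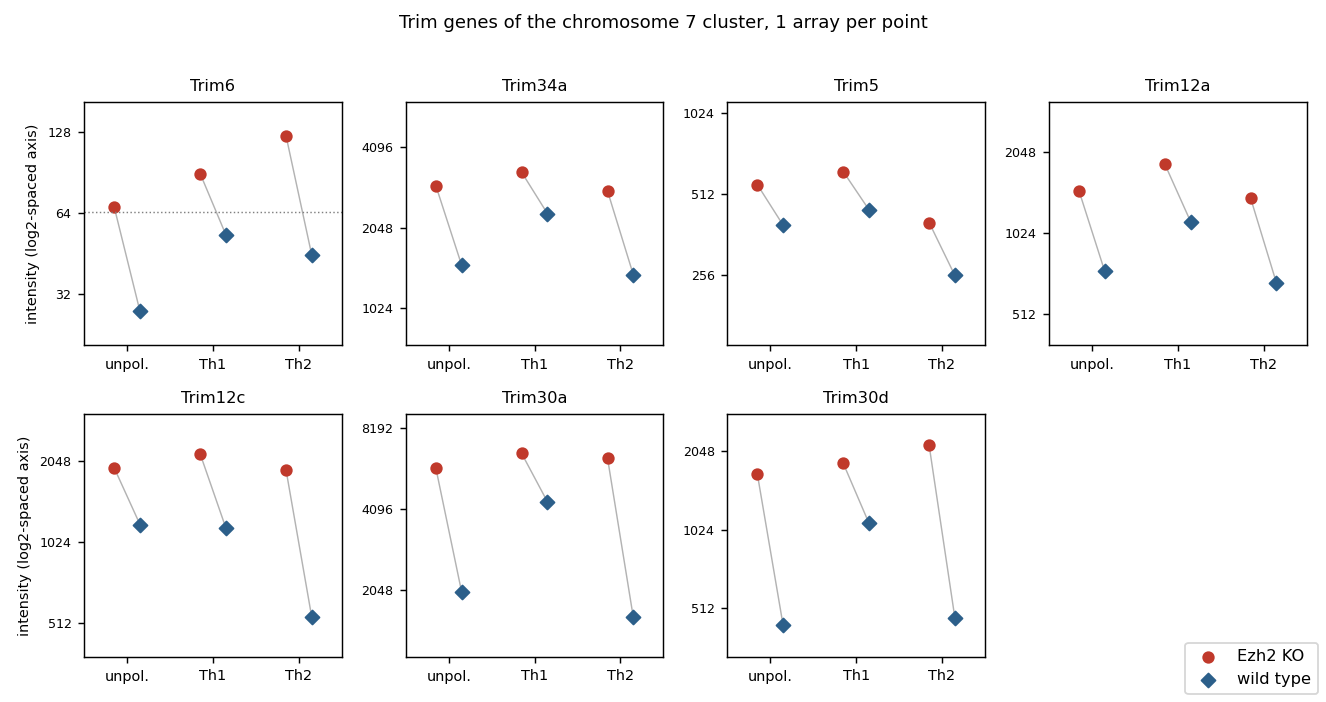
Intensity on a log2-spaced axis for the 7 tested Trim genes of the chromosome 7 cluster, 1 point per array, with lines joining the genotypes of a culture and a dotted line at the signal limit where it is in range. In each panel every Ezh2 KO point is above the wild type point of its culture, and wild type Th1 is the highest wild type array of all 7 genes except Trim12c.

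Because these 7 genes moved together, their RefSeq promoter windows (assembly GRCm38.p6, 250 bases before to 50 after each annotated start) were searched for the core of the interferon response element. The letters were GAAANNGAAA, which reads TTTCNNTTTC on the other strand, and either strand counted. Windows were found for 47 of the 58 Trim genes. The core stood in a window of 6 of the 7 cluster genes (85.7%), all but Trim6, against 3.99% of 27025 genes in the table. Among all matched Trim genes it stood in 9 (19.1%), the other 3 being Trim26, Trim21 and Trim2. The core of the STAT site, TTCNNNGAA, was in a window of 0 of the 7 cluster genes and 4 of the 47 matched Trim genes (8.51%), against 9.55% of all genes.

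The stretches around the interferon core are shown for the cluster genes that hold one, since these are the letters the cluster shares beyond its direction. Each is 30 bases on the gene's own strand, 5′ to 3′, with the core in capitals.
Trim34a, chr7:104244457-104244486, plus strand: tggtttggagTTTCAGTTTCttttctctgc
Trim5, chr7:104288136-104288165, minus strand: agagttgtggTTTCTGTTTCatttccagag
Trim12a, chr7:104315466-104315495, minus strand: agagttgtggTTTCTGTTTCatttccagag
Trim12c, chr7:104353359-104353388, minus strand: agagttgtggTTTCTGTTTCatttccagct
Trim30a, chr7:104465210-104465239, minus strand: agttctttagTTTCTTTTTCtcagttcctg
Trim30d, chr7:104507871-104507900, minus strand: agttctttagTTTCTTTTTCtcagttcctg
Trim5 and Trim12a have the same 30 letters here, and so do Trim30a and Trim30d. The first base of the core lay at -49 in Trim5, -41 in Trim30d, -36 in Trim30a, -29 in Trim12c, and 11 in Trim12a and Trim34a, counted from the annotated start.

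The likeness between neighbours goes beyond the core. Over the 300-base windows, Trim30a and Trim30d shared 90.8% of aligned bases, Trim12c and Trim5 82.8%, Trim12a and Trim12c 72.9%, and Trim12a and Trim5 67.1%. The 150 bases just before the annotated start of Trim30a and Trim30d, the pair with the largest differences in the cluster, show this.
Trim30a, chr7:104465194-104465343, minus strand: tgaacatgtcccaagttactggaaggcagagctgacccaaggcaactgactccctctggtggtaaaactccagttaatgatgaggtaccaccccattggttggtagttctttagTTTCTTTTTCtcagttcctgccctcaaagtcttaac
Trim30d, chr7:104507850-104507999, minus strand: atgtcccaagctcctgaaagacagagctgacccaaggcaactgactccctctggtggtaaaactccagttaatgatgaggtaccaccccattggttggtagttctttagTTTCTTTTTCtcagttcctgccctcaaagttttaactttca
Such windows are copies of one another and do not count as separate occurrences of the core, and a match of letters says nothing of what binds there.

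**Figure D3:**
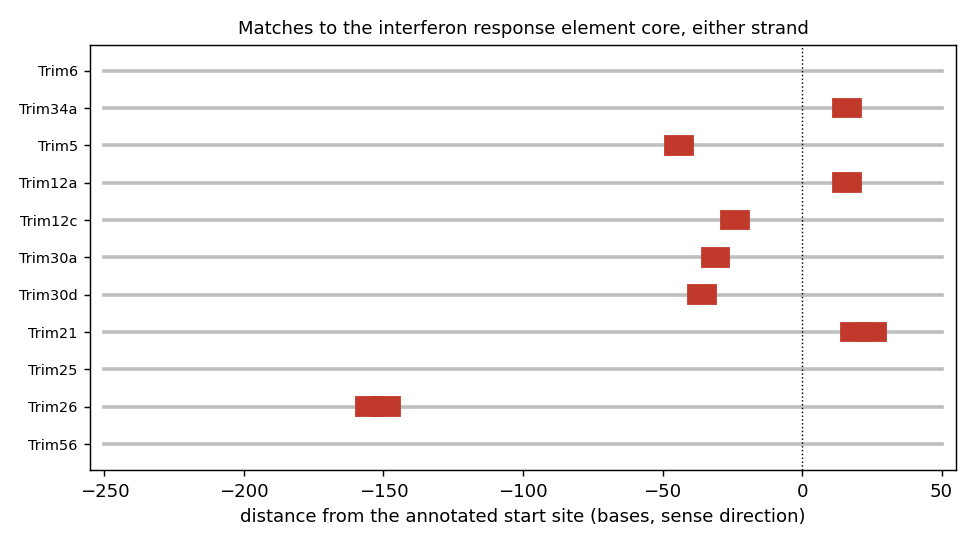
Position of matches to the interferon core (red blocks, either strand) along the first annotated promoter window of the antiviral Trim genes that have one, as distance from the start site in bases in the sense direction. Trim6, Trim25 and Trim56 have no match in the window, and the matches of Trim5, Trim12c, Trim30a and Trim30d lie within 49 bases before the start.

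Antiviral members outside the cluster did not follow it as a group. Of 5 tested, 1 was called (16.4% of all genes were). In all cultures 3 were higher (26.2% of all genes were) and 2 were lower (36.3% of all genes were), with a median difference of 0.35. Trim26, a ubiquitin ligase of the major histocompatibility region that acts on interferon induction, was called higher, with 905, 1095 and 1042 in Ezh2 KO against 604, 616 and 547 in wild type (0.78 ± 0.18, limma adjusted p = 0.0336). Its levels were even across cultures within each genotype. Its window holds overlapping interferon cores on chromosome 17, the first of them in the stretch printed here.
Trim26, chr17:36836976-36837005, plus strand: ccgcttccgaTTTCACTTTCcttttctcgg

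Trim21, the cytosolic receptor for antibody-coated virus, had 1447, 1535 and 1747 in Ezh2 KO against 1132, 1341 and 1138 in wild type (0.39 ± 0.21, limma adjusted p = 0.104). The genotypes did not overlap, but the difference did not pass. It lies on chromosome 7 outside the cluster, and its core is read here on the opposite strand from those above.
Trim21, chr7:102565450-102565479, minus strand: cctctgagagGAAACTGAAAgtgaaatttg
Trim25, which ubiquitinates the RNA sensor Ddx58 (RIG-I), had 4895, 4673 and 4617 in Ezh2 KO against 3654, 4319 and 3213 in wild type (0.35 ± 0.21, limma adjusted p = 0.123) and did not pass either. As in Trim30a, wild type Th1 was the wild type array nearest to Ezh2 KO.

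Trim14 and Trim56 went the other way without passing. Trim14, an adaptor of mitochondrial antiviral signalling, had 1436, 1347 and 1152 in Ezh2 KO against 1823, 1748 and 1609.8 in wild type (-0.40 ± 0.07, limma adjusted p = 0.0562), with no overlap. Trim56, a ligase known in human cells for acting on DNA sensing, had 1313, 1206 and 1074 in Ezh2 KO against 1488, 1327 and 1301 in wild type (-0.20 ± 0.07, limma adjusted p = 0.170), with overlap. Over the 12 tested antiviral members, cluster included, 5 were called higher (41.7%, against 8.37% of all genes) and 0 lower, with a median of 0.81, and 4 of those 5 are the cluster genes that are not independent measurements.

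Genes of the interferon response outside the family were set beside these. From a list of 36 interferon-stimulated genes, 33 were tested and 13 were called higher (39.4%, against 8.37% of all genes) and 0 lower. Their median difference was 1.36, against -0.07 over all genes. The largest were Rsad2 (3.46 ± 1.11), Mx1 (3.23 ± 1.23) and Ifit1 (3.09 ± 0.77), all called. Cxcl10 was called too, at least 8.33-fold higher, but its wild type values were all under the limit, 1 of them at the floor, so it passed only through Ezh2 KO. From a list of 20 genes of nucleic acid sensing and its signalling, which are the substrates and partners of several Trim proteins, 16 were tested and 4 were called higher (25.0%, against 8.37% of all genes) and 0 lower, with a median of 0.18. In all 3 cultures 8 were higher and 4 lower. The called ones were Ifih1 (1.03 ± 0.38), Tab2 (0.72 ± 0.03), Ddx58 (0.67 ± 0.24) and Cgas (0.66 ± 0.03). Irf7, the factor that amplifies the interferon response, differed by 1.06 ± 0.56 and did not pass (limma adjusted p = 0.0702). Both lists come from general knowledge but were chosen with earlier results of these data known. The first had been seen to move in these arrays before it was used here. Pml, Mid1 and Mefv, tripartite motif genes named otherwise, differed by 0.45, -0.04 and 0.01 and were not called.

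Of the TIF1 cofactors, 3 were tested and 1, Trim24, was called lower in Ezh2 KO (8.05% of all genes were). In all 3 the Ezh2 KO arrays lay below the wild type arrays without overlap. Trim24, a cofactor of nuclear receptors and a ligase for p53, had 932, 752 and 943 in Ezh2 KO against 1340.5, 1212 and 1551 in wild type (-0.64 ± 0.10, limma adjusted p = 0.0336). Trim28 had 4342, 4449 and 4124 in Ezh2 KO against 5844.5, 5679.7 and 6035 in wild type (-0.44 ± 0.10, limma adjusted p = 0.0522). Trim28 was even across cultures, while Trim24 was lower in Th1 than in Th2 in both genotypes, by 0.33 in Ezh2 KO and 0.36 in wild type. Trim33, which acts with Smad proteins downstream of TGF-beta, had 2184, 2212 and 2121 in Ezh2 KO against 2609, 2681 and 2669.7 in wild type (-0.29 ± 0.04, limma adjusted p = 0.0868). Trim66, the TIF1 gene best known from testis, stayed under the signal limit on all arrays. Since 36.3% of all genes were lower in all 3 cultures and 27.5% were lower without overlap, those counts say little about 3 genes.

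Further probe sets were lower in all 3 cultures for Trim28 and Trim33, whereas both further probe sets of Trim24 had mixed signs. For Trim28 a second probe set had 1581, 1354 and 1384 in Ezh2 KO against 2359, 2263 and 2464 in wild type, a difference of -0.72. When every probe set was fitted singly, a fit added after the values were seen that called 9.17% of 21563 probe sets, this one passed (limma adjusted p = 0.0432) and the first did not (0.0724). For Trim33 a second probe set had 442, 488 and 309 in Ezh2 KO against 689, 772 and 707 in wild type, a difference of -0.83 (limma adjusted p = 0.0592). For Trim24 a second probe set had 201, 215 and 213 in Ezh2 KO against 216, 177 and 190.3 in wild type, a difference of 0.11 (limma adjusted p = 0.556). The other one had 124, 200.3 and 169.5 in Ezh2 KO against 270.2, 170.4 and 251 in wild type, a difference of -0.48 (limma adjusted p = 0.323). The mean was thus negative in 2 of the 3 probe sets of Trim24, and lower in every culture in 1 of the 3.

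**Figure D4:**
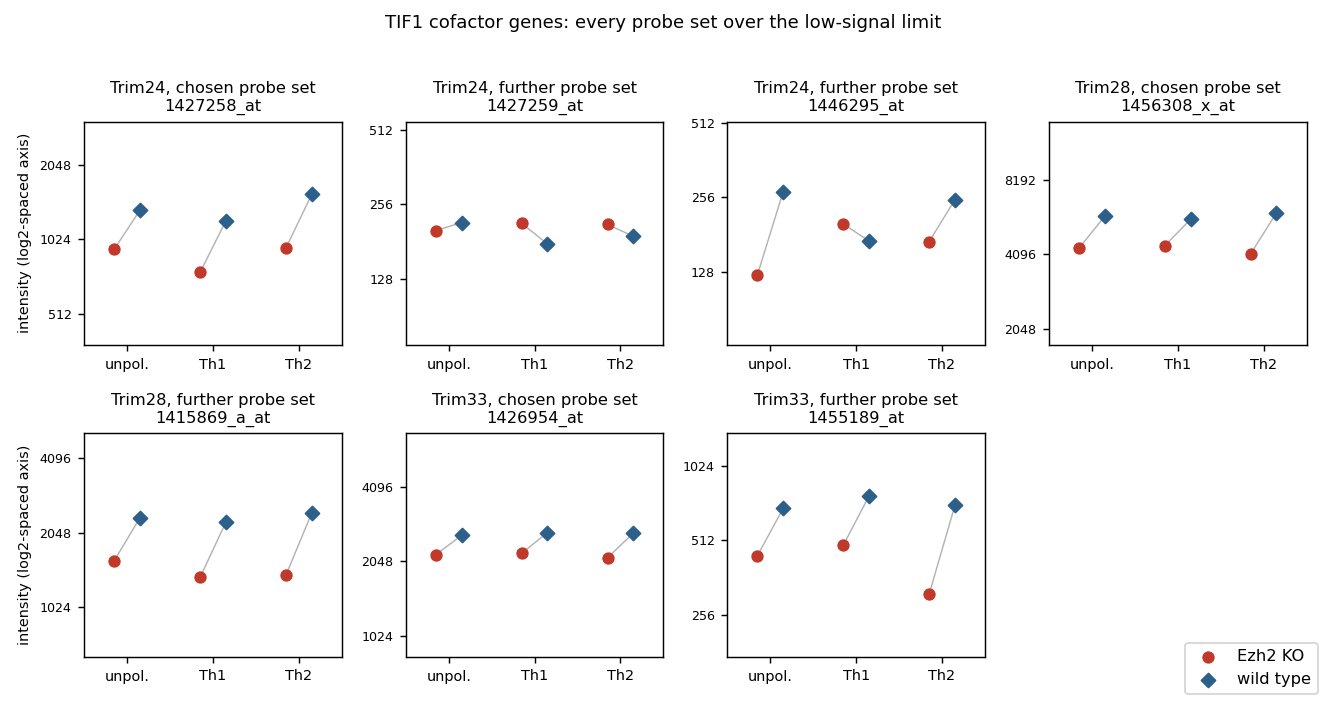
Intensity on a log2-spaced axis for every probe set of Trim24, Trim28 and Trim33 that passed the signal limit, 1 point per array, with lines joining the genotypes of a culture. Both probe sets of Trim28 and both of Trim33 are lower in Ezh2 KO in all 3 cultures, while 2 of the 3 probe sets of Trim24 have mixed signs.

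Partners of Trim28 in gene silencing were taken as a list of 14 genes. The list was chosen with earlier results of these data known, so its shares are not an independent test. Of the 12 genes tested, 3 were called lower (25.0%, against 8.05% of all genes) and 0 higher, with a median of -0.44, against -0.07 over all genes. The called ones were Chd3 (-1.12 ± 0.36), a helicase of the NuRD complex, Mphosph8 (-0.54 ± 0.13), a reader of methylated histones, and Dnmt1 (-0.52 ± 0.10), the maintenance DNA methyltransferase. Cbx5, which encodes HP1 alpha, differed by -0.49 ± 0.28 and did not pass (limma adjusted p = 0.0968), and Setdb1, the histone methyltransferase that Trim28 recruits, differed by -0.35 ± 0.12 (limma adjusted p = 0.0833).

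Of the 4 NHL genes tested, 0 were called by limma (16.4% of all genes were), and their differences ran from -0.82 to 1.03. Trim2, a ligase known from neurons, had 84.6, 75.3 and 64.9 in Ezh2 KO against 38.9, 27.2 and 46.0 in wild type (1.03 ± 0.49, limma adjusted p = 0.0609), with all wild type values under the signal limit. Trim71, the relative of the worm gene lin-41, had 60.6, 32.4 and 48.4 in Ezh2 KO against 60.5, 51.2 and 170.1 in wild type (-0.82 ± 0.92, limma adjusted p = 0.220), so the wild type Th2 array alone was over the limit and its difference rests on that array. Trim32, a ligase mutated in a human muscular dystrophy, differed by -0.56 ± 0.29 (limma adjusted p = 0.0812) and Trim3 by 0.42 ± 0.91 (limma adjusted p = 0.479). Of the 2 tested COS genes, Trim46, which organises axonal microtubules, differed by 0.42 ± 0.35, Trim36 by 0.36 ± 0.47, and neither was called.

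Among the 18 tested Trim genes of other roles, 1 was called (5.56%, against 16.4% of all genes). Differences ran from -0.43 to 1.14 with a median of -0.16. Trim16, a ligase that lacks a RING finger and takes part in the response to damaged lysosomes, was called higher, with 1473, 1275 and 1435 in Ezh2 KO against 733, 882 and 796 in wild type (0.80 ± 0.24, limma adjusted p = 0.0404). Its genotypes were well apart in every culture, and a second probe set was also higher in all 3 (mean 0.48). Trim62 had 65.6, 50.5 and 70.8 in Ezh2 KO against 49.3, 11.8 and 38.0 in wild type (1.14 ± 0.87, limma adjusted p = 0.120), all wild type values being under the limit and the Th1 one close to the floor. Trim13, a ligase of the endoplasmic reticulum, differed by 0.59 ± 0.41 (limma adjusted p = 0.116). Members such as Trim27 (-0.15 ± 0.09), Trim35 (0.04 ± 0.07) and Trim59 (-0.32 ± 0.15) were not called.

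The 19 Trim genes under the limit on all arrays were Trim7, Trim9, Trim10, Trim15, Trim17, Trim31, Trim40, Trim42, Trim43a, Trim47, Trim54, Trim61, Trim63, Trim66, Trim67, Trim69, Trim72, Trim75 and Trim80. Among them are Trim54 and Trim63, the ligases of muscle, and Trim9 and Trim67, known from neurons. Trim9 has another probe set that just passed the limit through wild type Th2, with 26.4, 2.91 and 2.79 in Ezh2 KO against 63.2, 39.0 and 66.0 in wild type. Its Th1 and Th2 values in Ezh2 KO were below the floor of 11.33.

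Over the family, 37 further probe sets of 24 genes passed the limit, 32 with the same sign of the mean difference as the probe set used and 5 with the opposite sign. In the cluster, second probe sets were higher in Ezh2 KO in every culture for Trim30d (1.55), Trim30a (1.04) and Trim12c (1.41). That of Trim12a had 107, 128 and 112 in Ezh2 KO against 121, 167 and 78.8 in wild type, a mean of -0.01 with mixed signs. That of Trim34a had 48.1, 103.7 and 104 in Ezh2 KO against 56.0, 44.3 and 43.1 in wild type, a mean of 0.76 that was negative in unpolarized cultures (-0.22), where both values were under the limit. That of Trim6 was under the limit on all arrays, with a mean of 0.46 and mixed signs. The calls of Trim6, Trim12a and Trim34a each rest on 1 of 2 single-symbol probe sets. Outside the cluster, so do the calls of Trim16 and Trim26. With every probe set fitted singly, neither set of Trim16 passed (limma adjusted p = 0.0511 for the one used and 0.11 for the second). The second probe set of Trim26 had 127, 62.3 and 125 in Ezh2 KO against 73.8, 90.1 and 47.8 in wild type. The mean was 0.55 with mixed signs (limma adjusted p = 0.414 with every probe set fitted singly). A dimmer probe set of Trim25 differed by 1.17, against 0.35 for the one used.

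Culture itself was compared with genotype as a block, in 3 comparisons that share arrays. Limma called 0 of the 39 Trim genes between Th1 and Th2, between Th1 and unpolarized and between Th2 and unpolarized, where the share of all genes called was also 0 percent. At an unadjusted limma p under 0.05 there were 3, 4 and 4 Trim genes and 875, 634 and 773 genes in all. The smallest adjusted p of a Trim gene was that of Trim46 in Th2 against unpolarized cultures, with 101.5 against 45.6 in Ezh2 KO and 97.2 against 26.8 in wild type (log2 1.51, SE 0.21, limma adjusted p = 0.490). Both unpolarized values of Trim46 were under the signal limit, so the size of this difference is uncertain. Trim5 was higher in Th1 than in Th2 in both genotypes, by 0.63 in Ezh2 KO and 0.81 in wild type (limma adjusted p = 0.541).

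Within a genotype there is 1 array per culture and no test, and the following values were picked out after they were seen. The wild type Th1 array was at least 1.5-fold over both other wild type arrays for 4 of the 39 tested Trim genes, Trim12a, Trim30a, Trim30d and Trim34a, all of them in the cluster, against 3.11% of all genes. The Ezh2 KO Th1 array was that far over both other Ezh2 KO arrays for 0 of the 39, against 2.65% of all genes. The median Th1 minus Th2 difference of the 7 cluster genes was 0.20 in Ezh2 KO and 0.81 in wild type. The 33 interferon-stimulated genes had -0.03 in Ezh2 KO and 1.12 in wild type, with 20 of them (60.6%) at 1.5-fold in wild type Th1 and 0 in Ezh2 KO Th1. The genotype difference was smallest in Th1 for 6 of the 7 cluster genes (35.0% of all genes) and largest in Th2 for 7 of 7 (32.9% of all genes). The Th1 cultures were also those without antibody to interferon gamma, and its part in these values was not tested.

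**Figure D5:**
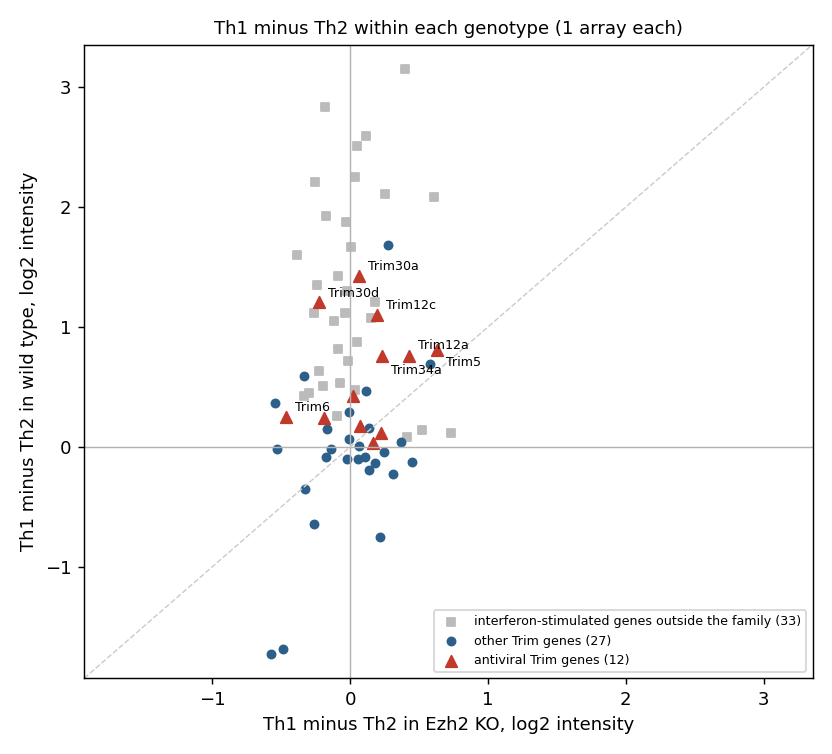
Log2 difference of Th1 minus Th2 in Ezh2 KO (x axis) and in wild type (y axis), 1 array per value, for the 12 tested antiviral Trim genes (red triangles, cluster genes named), the other 27 tested Trim genes (blue circles) and 33 interferon-stimulated genes (grey squares). The cluster genes other than Trim6 lie from 0.76 to 1.43 in wild type and from -0.23 to 0.63 in Ezh2 KO.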

How the data were processed

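RNA from the 6 cultures was labelled from its 3' end by in vitro transcription, per the labels' protocols. The authors' deposited values are linear intensities. Their software was Affymetrix Expression Console, per the submitters' processing notes, and how it summarized probes is not given here. Equal trimmed means (2% off each end) show scaling to one target, and the distributions differ, so no quantile normalization had been applied.

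Of 45101 probe sets, 64 were controls, 34945 had 1 symbol in the platform annotation, 932 several and 9160 none, and 34754 of those with 1 symbol had an Entrez identifier in the RefSeq table of GRCm38.p6, with 0 symbols updated. Intensities were raised to the 20th percentile of all values (11.33, log2 3.50) and taken to log2. Genes with no value at or over the median of all values were not tested. limma 3.58.1 in R 4.3.3 was used to fit culture plus genotype over the 6 arrays (lmFit, eBayes, 2 residual degrees of freedom, prior 1.66, Benjamini-Hochberg over 11566 genes) and was checked on simulated data. Signal over background, not depth, limits the dim genes.

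The members, role lists and outside lists were chosen with earlier results of these data known. Genes were named by rule: those called, the 10 with the largest mean difference, all tested antiviral and TIF1 members, and up to 4 genes per outside list. Trim3, Trim9, Trim13, Trim27, Trim32, Trim35, Trim36, Trim46, Trim59, Cgas and Setdb1, and the values by culture within a genotype, were added after their values were seen. Alternatives covered scaling, filter, floor, probe set rule, intensity trend, left-out cultures and the block. Promoter windows, matched by symbol, and their sequences are RefSeq's. Levels of different probe sets were not compared.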

Additional observations from a re-analysis of the deposited data

Results flagged for a closer look

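Trim60, a dim member, had log2 differences of Ezh2 KO minus wild type of 0.65 in Th2 and -0.66 in unpolarized cultures, opposite signs at over 1.5-fold each. That contrast between cultures rests on 1 pair of arrays each and was not tested, and of its 6 values only the Ezh2 KO Th1 array, at 74.7, was over the signal limit.

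Probe sets that carry several symbols entered no gene test. Of the 5 that name a Trim gene, 3 had all Ezh2 KO arrays above all wild type arrays (20.1% of all genes tested did so). Of the other two, a second one shared by Trim34b and Trim34a had mixed signs (0.85 on average, -0.31 in Th1), and the one shared by Gm38525 and Trim30b was under the signal limit on all arrays (-0.78). The mean log2 difference was 1.46 for the probe set shared by Trim30d and Trim30a, with 1519, 1571 and 1608 in Ezh2 KO (unpolarized, Th1, Th2) against 566, 922 and 354 in wild type. It was 0.71 for one shared by Trim34b and Trim34a, with 872, 893 and 893 in Ezh2 KO against 526, 606 and 495 in wild type. It was 0.62 for the one shared by H2aw and Trim17, with 277, 267 and 324 in Ezh2 KO against 175, 176 and 213 in wild type. Which of the named genes gave the signal cannot be told apart. The probe sets that name Trim30d, Trim30a, Trim34b or Trim34a belong to the chromosome 7 cluster and are not measurements independent of it.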

How the results depend on the processing

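No Trim gene named by rule changed the sign of its mean difference under any alternative run that tested it. The filter at the 60th percentile tested 31 Trim genes, without Trim2, Trim6, Trim62 and Trim71, and averaging probe sets tested 35. The number of Trim genes called higher and lower in Ezh2 KO, 6 and 1, did move. It was 5 and 0 with median centring (3 of the 7 genes kept their call), 6 and 2 with quantile normalization, 0 and 0 with no filter on low values, 10 and 6 with a filter on the mean at the 60th percentile, 6 and 1 with no floor, 10 and 3 with a floor at the 40th percentile, 3 and 1 with a gene's probe sets averaged, 12 and 8 with an intensity trend in eBayes, and 7 and 4 without the culture block. With every probe set fitted singly, an alternative chosen after seeing the data, it was 3 and 1 among the probe sets used for the genes. In that fit, further probe sets of Trim2 (higher, limma adjusted p = 0.0494), Trim9 (lower, 0.046) and Trim28 (lower, 0.0432) also passed. Leaving out each culture in turn gave 0 to 0 in both directions. Without the filter 18193 genes entered the correction, and without a culture 1 residual degree of freedom was left. For the other settings the cause was not tested. Over all genes, the counts of 968 higher and 931 lower became 867 and 414 with median centring, and 999 and 844 with quantile normalization. With no filter on low values they were 0 and 0, so no gene at all was called there. They were 1351 and 1874 with the filter at the 60th percentile, 1777 and 2204 with the intensity trend, and 1271 and 1573 without the block. With every probe set fitted singly they were 694 and 509 among the probe sets used for the genes. The median over the tested Trim genes, 0.04, became -0.06 to 0.03 with 1 culture left out (-0.06 without Th2), -0.08 with probe sets averaged and -0.15 with the filter at the 60th percentile. Culture comparisons called 0 Trim genes under all alternatives. No paired analysis by replicate number was possible because the labels number no replicates, so culture served as the block.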
